A study of Mus musculus with 8 samples.

Results

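The genes described here copy the DNA of a dividing cell. They are 47 mouse genes, chosen by name from what their proteins do, with earlier results of these data known. Counts of these genes set beside the share over all genes are therefore no test on an independent list. By role, 5 license replication origins, 6 encode the MCM2-7 helicase, 6 activate it and 5 are for the sliding clamp and its loader. Another 8 are for polymerases and primase, 4 for lagging-strand joining and single-strand binding and 5 for nucleotide supply. The rest are 4 for copying chromatin and 4 that control entry into S phase. All 47 were found among the 53647 gene identifiers of the count files, and all 47 had enough counts to be tested, with 37 counts for Orc1 and for Gins1 in their lowest library.

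RNA was sequenced from primary myotubes, the multinucleated muscle cells that form when cultured myoblasts leave the cell cycle and fuse. The myoblasts came from limb muscles of wild-type mouse pups aged 2 to 3 days and were differentiated in medium with horse serum. The groups were control myotubes and myotubes given interleukin 6 (IL6), leukaemia inhibitory factor (LIF) or oncostatin M (OSM), each at 250 ng/ml for 48 h, with 2 libraries per group and harvest 72 h after differentiation in all groups. These are related cytokines that signal through the receptor subunit gp130. The labels do not say whether the libraries of a group came from separate animals or cultures, so p-values measure only the spread between these libraries, which may be technical.

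Before S phase, the origin recognition complex, Cdc6 and Cdt1 load the ring of MCM2-7 onto DNA. The ring becomes an active helicase when Cdc45 and the GINS complex join it, and primase, the DNA polymerases and the clamp PCNA then copy both strands. Most of these genes are transcribed late in G1 and in S phase under E2F transcription factors, and they are low in cells that have left the cell cycle, such as nuclei of mature muscle fibres.

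A short stretch before an annotated start is shown for 6 of the genes because members of the E2F family bind words of the form searched here. The genes were picked for display after their values were seen: Mcm5, Mcm6, Orc1 and Tk1 fell with OSM, and E2f1 and Ccne1 did not pass the test. Each line gives the 200 bases upstream of the annotated start, 5′ to 3′ on the strand of the gene, from RefSeq (build GRCm38.p6). Capitals mark the E2F words TTTGGCGC, TTTGCCGC, TTTCGCGC or TTTCCCGC and the CCAAT box, each read on either strand. Where neighbouring words overlap, they run together as a single block of capitals.
Mcm5, chr8:75109309-75109508, plus strand: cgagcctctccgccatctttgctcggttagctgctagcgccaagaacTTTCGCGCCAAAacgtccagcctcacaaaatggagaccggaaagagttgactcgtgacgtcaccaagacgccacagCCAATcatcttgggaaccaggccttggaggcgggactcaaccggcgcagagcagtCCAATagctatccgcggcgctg
Mcm6, chr1:128359706-128359905, minus strand: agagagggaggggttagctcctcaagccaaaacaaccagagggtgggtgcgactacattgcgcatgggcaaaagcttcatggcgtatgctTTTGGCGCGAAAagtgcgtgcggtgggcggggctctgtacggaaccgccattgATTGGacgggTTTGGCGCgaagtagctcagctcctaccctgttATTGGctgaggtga
Orc1, chr4:108579254-108579453, plus strand: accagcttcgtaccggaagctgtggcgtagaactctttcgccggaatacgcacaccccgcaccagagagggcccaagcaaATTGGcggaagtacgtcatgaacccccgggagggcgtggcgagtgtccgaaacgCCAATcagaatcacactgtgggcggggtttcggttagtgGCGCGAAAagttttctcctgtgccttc
Tk1, chr11:117826015-117826214, minus strand: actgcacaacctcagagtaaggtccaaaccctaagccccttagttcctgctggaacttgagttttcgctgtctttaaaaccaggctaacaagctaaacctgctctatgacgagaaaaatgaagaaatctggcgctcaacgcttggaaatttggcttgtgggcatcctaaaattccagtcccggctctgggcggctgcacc
E2f1, chr2:154569427-154569626, minus strand: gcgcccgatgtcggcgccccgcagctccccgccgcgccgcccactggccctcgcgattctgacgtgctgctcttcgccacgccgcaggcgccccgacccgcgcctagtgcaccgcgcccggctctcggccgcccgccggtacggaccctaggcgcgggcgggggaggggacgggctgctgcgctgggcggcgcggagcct
Ccne1, chr7:38107491-38107690, minus strand: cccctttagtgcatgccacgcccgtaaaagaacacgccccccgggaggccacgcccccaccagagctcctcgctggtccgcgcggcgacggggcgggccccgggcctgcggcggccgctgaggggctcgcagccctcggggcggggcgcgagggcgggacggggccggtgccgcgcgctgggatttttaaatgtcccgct

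Mcm5 holds a pair of overlapping E2F words and 2 CCAAT boxes in this stretch, Mcm6 holds 3 E2F words and 2 CCAAT boxes, and Orc1 holds 1 E2F word and 2 CCAAT boxes. The stretches of Tk1, E2f1 and Ccne1 hold neither word, which says only that these letters are absent from them. The E2f1 stretch consists largely of coding sequence of that gene, so the annotated start used for it lies inside the gene. The promoter ahead of E2f1 is therefore not shown. RefSeq windows from 250 bases before to 50 bases after a start were at hand for 38 of the 47 genes. An E2F word lay in a window of 16 of the 38 genes (42.1%), against 4.58% of the 10387 tested protein-coding genes with a window. Per window rather than per gene, the shares were 34.0% of the windows of these genes and 2.26% of all 32851 windows. A CCAAT box lay in 23 of the 38 genes (60.5%), against 43.3%. The word TTTGAA, which resembles the CHR element of mitotic genes, lay in 7 of the 38 (18.4%), against 14.2%. Among the replication genes at least 2-fold lower with OSM, 7 of 13 with a window held an E2F word and 0 of 13 held TTTGAA. Among the other members the counts were 9 of 25 and 7 of 25. E2f1, whose promoter is not covered, is counted in the 38 and the 25 as a gene without either word. These matches describe the sequences and are not evidence of binding.

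The series as a whole was even in depth: 29482077 to 30025471 counts fell on genes per library, and levels are given as CPM, counts relative to library size scaled by TMM, the trimmed mean of M values. Myotube markers were abundant in every group, with 10 of 10 tested and a summed level of 24921 to 26184 CPM in control, 21589.9 to 24377 in IL6, 22746 to 24162 in LIF and 21923 to 22224 in OSM. OSM lowered Myog (-0.53), Tnni1 (-0.34) and Myh8 (-0.20) on the log2 scale and raised Des (0.30), and with LIF these were -0.43, -0.32, -0.24 and 0.55, all called. Of the other cell types checked, Lum and Tcf21 of the fibroblast list and Emcn of the endothelial list were at 0 in every library. Ptprc, the pan-leukocyte marker, did not exceed 0.0992 CPM. Other listed markers were not absent: Col3a1 of the fibroblast list had 1332 to 2064 CPM over the libraries. Acta2 of the smooth muscle and pericyte list had 500.2 to 722 CPM. Whether other cell types were present was not tested. Libraries of a group differed little for the replication genes: the median ratio of the higher to the lower library was 1.04 in LIF to 1.08 in control. In control, replicate 2 was above replicate 1 for 37 of the 47.

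With OSM, most of the replication machinery was lower than in control myotubes. The summed level of the 47 genes was 1411 and 1525 CPM in the control libraries, 1427 and 1396 with IL6, 1238 and 1224 with LIF and 879 and 905 with OSM. The LIF libraries lay below all control and IL6 libraries, and the OSM libraries lay below all others. By edgeR's quasi-likelihood test, with p-values adjusted over all 15603 genes by the method of Benjamini and Hochberg and a call at an adjusted p under 0.05, OSM lowered 40 of the 47 and raised 0. Across all genes tested, 21.2% were called, 10.5% lower and 10.7% higher. The median change of the 47 was -0.86 on the log2 scale, 55.0% of control, against a median over all genes of -0.003. In 43 of the 47 both OSM libraries lay below both control libraries, as in 31.0% of all genes. In bulk RNA, fewer cells that are copying DNA and less of these RNAs in each cell cannot be told apart.

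**Figure D1:**
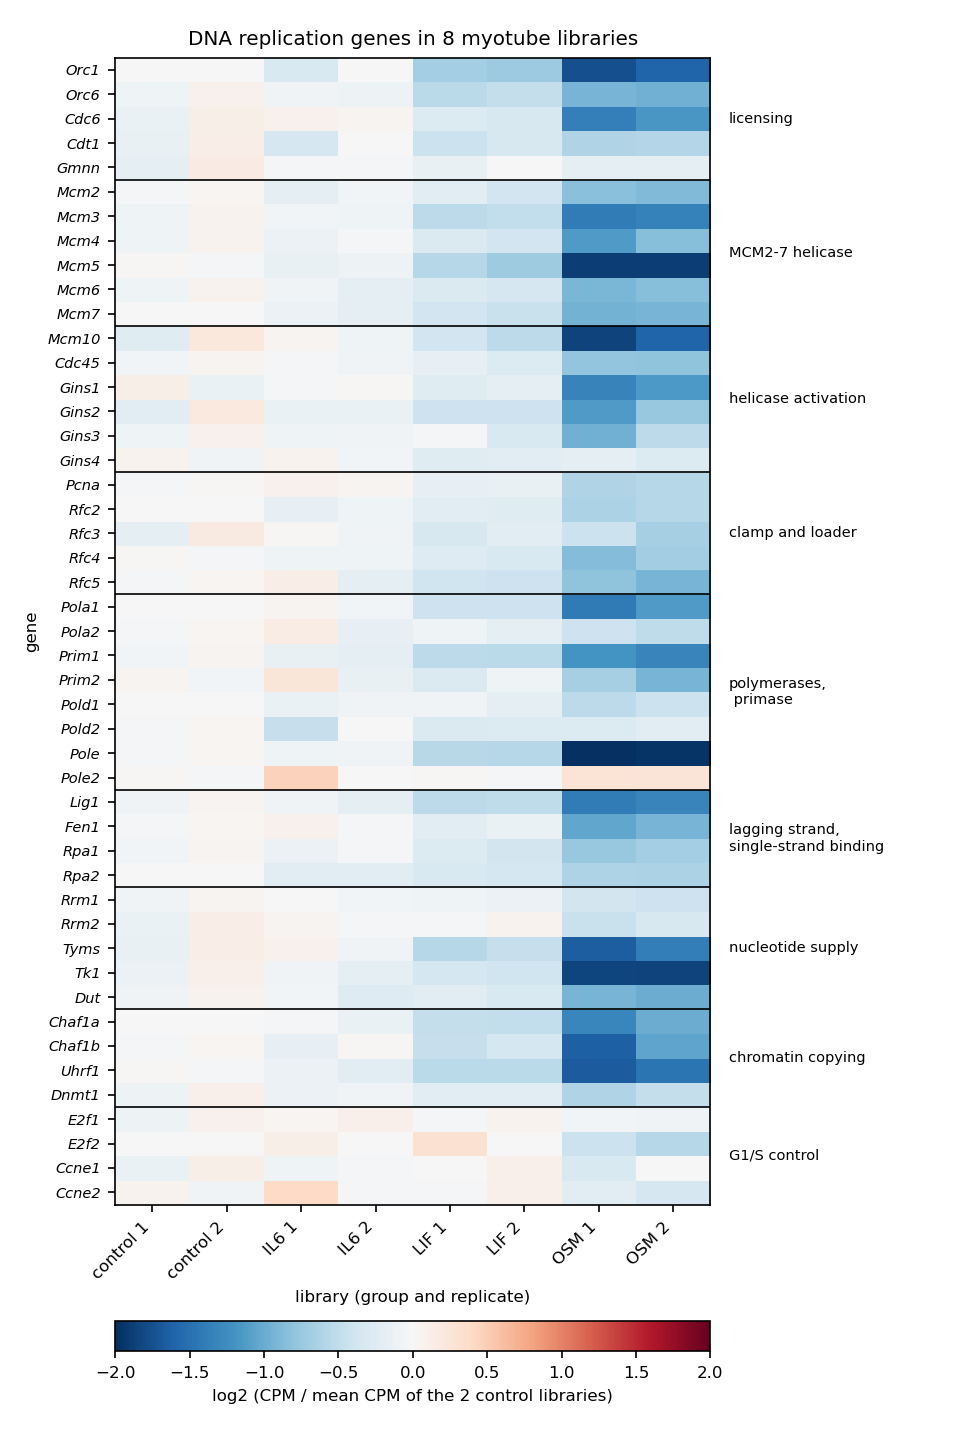
Each row is a replication gene and each column a library. Colour is log2 of its CPM over the mean of the 2 control libraries, so blue is lower and red higher than control. The OSM columns are blue in most rows, the LIF columns paler blue in fewer, and the rows of Gmnn, Gins4, Pold2, Pole2, E2f1, Ccne1 and Ccne2 stay pale.

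The 7 genes that were not called were Gmnn, Gins4, Pold2, Pole2, E2f1, Ccne1 and Ccne2. A fall of at least 2-fold was called in 15 genes (Orc1, Cdc6, Mcm3, Mcm5, Mcm10, Gins1, Pola1, Prim1, Pole, Lig1, Tyms, Tk1, Chaf1a, Chaf1b and Uhrf1), where 2.70% of all genes tested were called that far down. In contrast, Pcna, Rfc3, Pola2, Pold1, Rrm1, Rrm2, Dnmt1 and E2f2 were called with falls of under 1.5-fold. Mitosis markers moved with these genes: 8 of 8 were called lower with OSM, and their summed level was 610.0 to 715 CPM in control, 579 to 609 with IL6, 428 to 468 with LIF and 166 to 196 with OSM. Of 6 myoblast and satellite cell markers, Pax7 and Myf5 were called higher with OSM (log2 changes 0.39 and 0.82) and Megf10 lower (-0.71). All but Megf10, 5 of the 6, had a positive change, and the median was 0.19. The summed level of the 6 was 507 to 551 CPM in control and 484 to 496 with OSM. In it, the mean of Megf10 was 211 CPM in control and 129 with OSM. In the fibroblast list, Pdgfra and Col3a1 were called higher, Col1a1 was at -1.61 (95% interval -2.85 to -0.37, adjusted p = 0.0845), and the summed level was 1652 to 1717 CPM in control, 1504 to 1704 with IL6, 1984 to 2047 with LIF and 2059 to 2167 with OSM. In the macrophage list, Cd68 was called higher, and the summed level was 2.68 to 2.92 CPM in control and 5.13 to 5.44 with OSM. Of the endothelial list, 3 genes were tested and 0 were called with OSM. Its summed level was 1.30 to 1.38 CPM in control, 1.28 to 1.62 with IL6, 1.41 to 1.95 with LIF and 1.64 to 2.28 with OSM. In the smooth muscle and pericyte list, Acta2 was called higher (0.31), Rgs5 (-1.92) and Pdgfrb (-0.97) were called lower, and the summed level was 558 to 673 CPM in control and 738 in both OSM libraries. The part of a change in cell makeup in the lower replication genes was not tested.

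LIF also lowered replication genes, fewer of them and by less. LIF lowered 18 of the 47 and raised 0, where 7.70% of all genes tested were called, 3.52% lower and 4.18% higher. The median change was -0.30 on the log2 scale, 81.5% of control, and both LIF libraries lay below both control libraries in 39 of the 47 (26.8% of all genes). The 18 were Orc1, Orc6, the 6 MCM2-7 genes, Pola1, Prim1, Pole, Lig1, Rpa1, Rpa2, Tyms, Tk1, Chaf1a and Uhrf1. Each of them was also called with OSM, a comparison that shares the control libraries. Of the mitosis markers, 7 of 8 were called lower with LIF. The LIF count fell when control replicate 2 or either LIF library was left out. Such a fit leaves a group with 1 library, and the share of all genes called in it is not given here. All 18 kept their sign in every other fit, and 2 genes were both called and lower by at least 1.5-fold. The calls of Mcm3, Mcm5, Pole and Uhrf1 held in all 13 other fits run without a fold minimum, and each of the other 14 was lost in at least 1 of them.

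IL6 left no replication gene called. With edgeR 0 of 47 passed against control and 0% of all genes tested did. Over all 15603 genes tested, 809 had an unadjusted p under 0.05. Unadjusted p-values were under 0.05 for 2 of the 47, DESeq2 called 0, and leaving out IL6 replicate 2 gave 1 call, Pold2. The changes ran from -0.22 (Rpa2) to 0.24 (Pole2) on the log2 scale with a median of -0.07, and both IL6 libraries lay below both control libraries in 12 of the 47 (14.1% of all genes). The unadjusted 95% interval of the change stayed above a 1.5-fold fall for all 47 genes. The same held for 30 of the 47 with LIF and 9 of the 47 with OSM. Over all 15603 genes tested it held for 12696 with IL6, 11937 with LIF and 11793 with OSM.

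**Figure D2:**
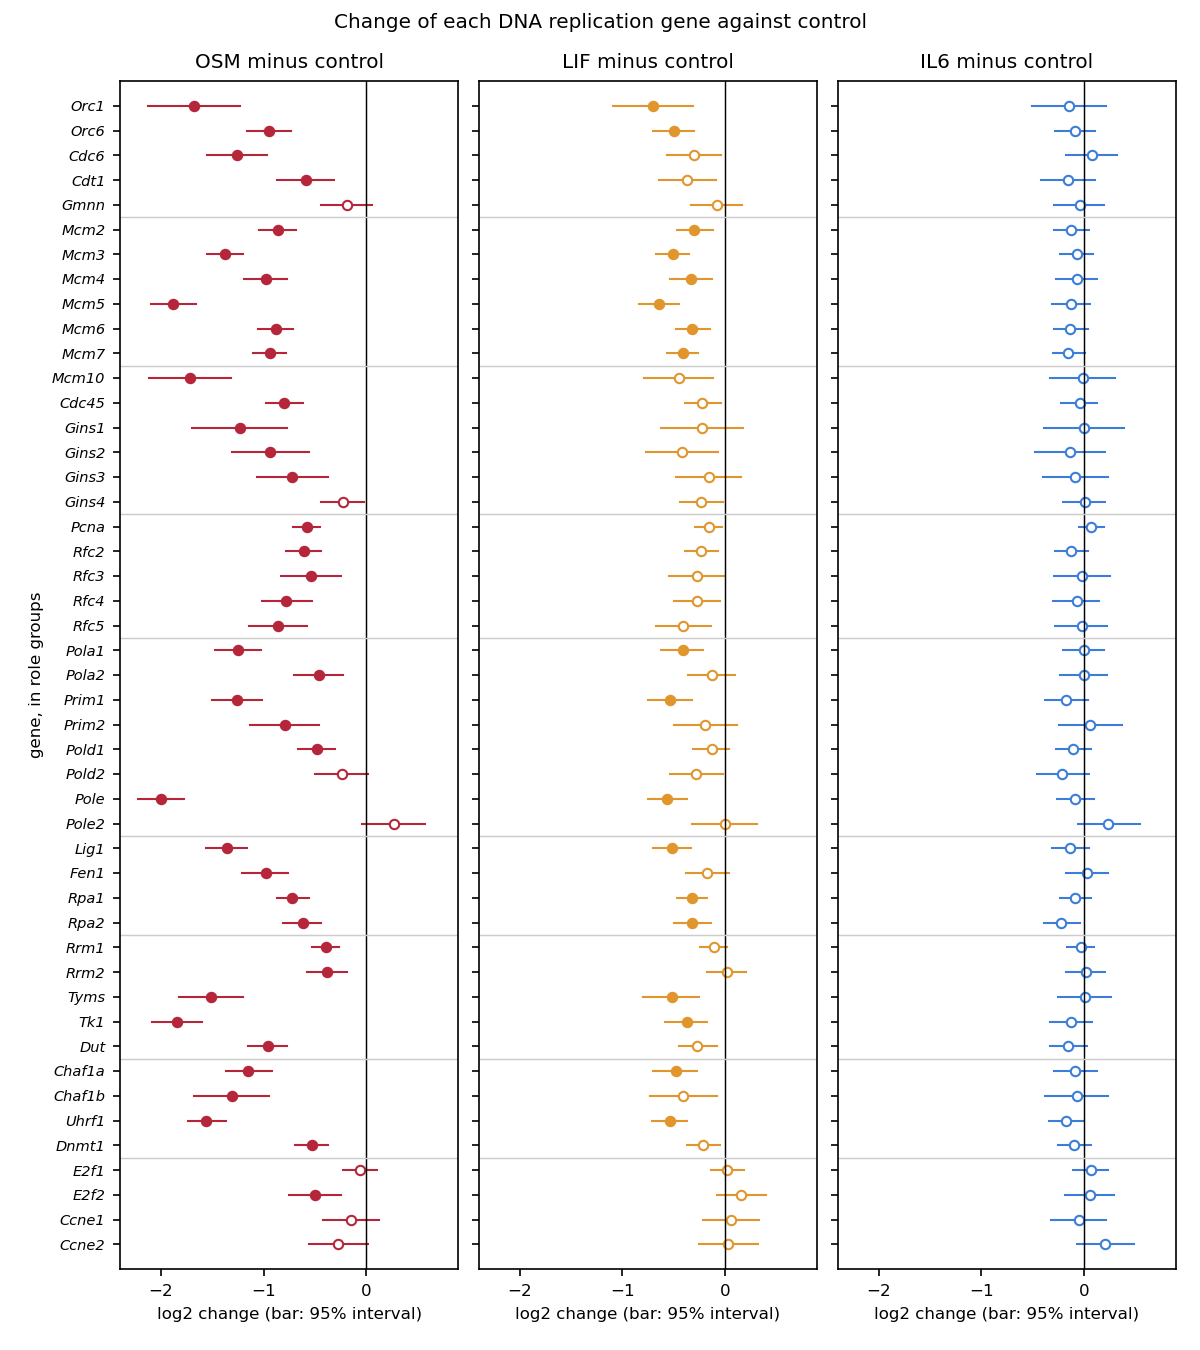
Points are log2 changes against control for each gene, bars are 95% intervals from edgeR, and filled points passed the adjusted test. The OSM panel has 40 filled points, the LIF panel 18 and the IL6 panel 0. The G1/S genes in the bottom rows sit near 0 except E2f2 with OSM.

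OSM also differed from LIF at the same dose and time. OSM was lower than LIF for 33 of the 47 genes and higher for 0, where 8.02% of all genes tested were called, 3.95% lower and 4.06% higher, with a median change of -0.56 on the log2 scale. That count was 21 without LIF replicate 1, 21 without OSM replicate 1, and 20 at a fall of at least 1.5-fold. Against IL6, OSM was lower for 41 of the 47 and higher for 0 (15.6% of all genes called, 7.48% lower and 8.09% higher), with a median of -0.76. LIF was lower than IL6 for 8 (2.76% of all genes called, 1.03% lower and 1.73% higher), namely Orc6, Mcm3, Mcm5, Pola1, Pole, Lig1, Tyms and Uhrf1. This last count fell when either LIF library, IL6 replicate 1 or either OSM library was left out, though all 8 kept their sign in every other fit. No gene of the 8 was lower by 1.5-fold or more. Every OSM library lay below every LIF library, and every LIF library below every control library, for 37 of the 47 genes, an order held by 8.86% of all genes tested. For 32 of the 47 the LIF libraries also lay below both IL6 libraries (5.45% of all genes).

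Comparisons that share no library give a view of the order among the genes. Across the 47 genes, the change of LIF against control and the change of OSM against IL6 were related with Pearson r 0.752 and Spearman rho 0.771, and over all 15603 genes with 0.535 and 0.469. The change of OSM against control and that of LIF against IL6 gave 0.772 and 0.794 for the 47 genes and 0.451 and 0.413 for all genes. The remaining pair, OSM against LIF and IL6 against control, gave 0.217 and 0.118 for the 47 genes and 0.174 and 0.146 for all genes. These are descriptions across genes, which are not independent replicates. Genes low in LIF relative to control, such as Orc1, Mcm5 and Pole, were among those lowest in OSM relative to IL6.

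**Figure D3:**
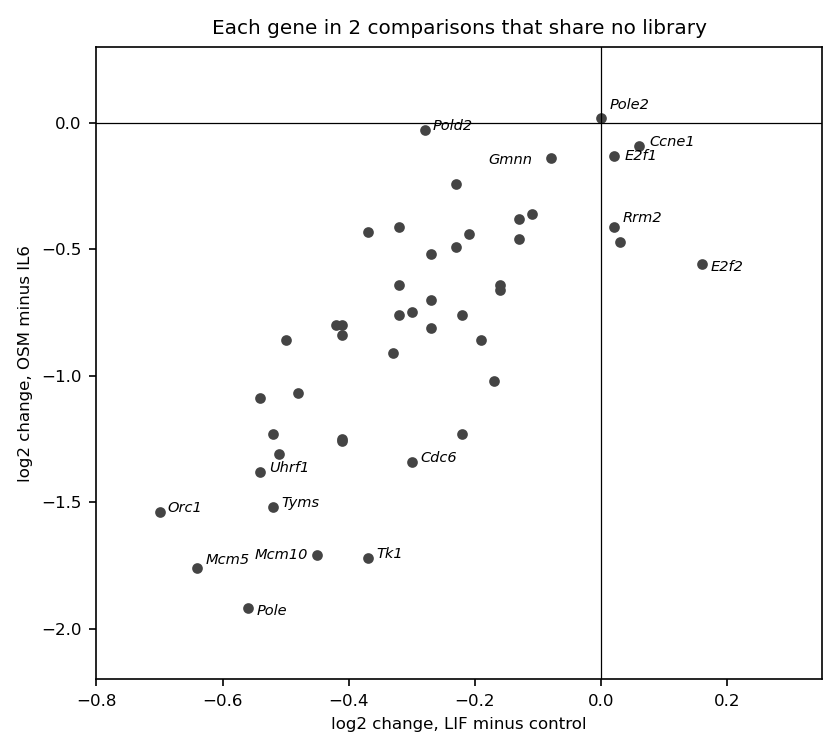
Each point is a replication gene, with its log2 change for LIF minus control on the x axis and for OSM minus IL6 on the y axis, and the lines mark 0. Orc1, Mcm5 and Pole lie at the lower left, and Pole2, E2f1, Gmnn and Ccne1 lie near 0 on both axes.

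Origin licensing genes fell with OSM except for the inhibitor. Of 5 genes, 4 were called lower with OSM and 2 with LIF. Orc1, the subunit of the origin recognition complex that varies through the cell cycle, had 4.32 and 4.26 CPM in control, 3.47 and 4.32 with IL6, 2.69 and 2.58 with LIF and 1.27 and 1.41 with OSM. The OSM libraries were lowest and the LIF libraries next, with no overlap with control. OSM changed it by -1.68 (SE 0.21, adjusted p = 7.30e-05). For LIF the change was -0.70 (SE 0.18, adjusted p = 0.0306). Orc1 was the lowest of the 47 in control per length of transcript, at 1.42 CPM per kb, and its LIF call was lost with DESeq2 and when any control, LIF or OSM library was left out. Gm12743 overlaps 10.8% of its exon bases on the opposite strand.

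Orc6, another subunit, fell by 0.95 on the log2 scale with OSM and by 0.50 with LIF. Cdc6, which loads the helicase together with Cdt1, fell by 1.26 with OSM. Cdt1 had 17.6 and 21.4 CPM in control, 15.5 and 19.6 with IL6, 14.5 and 15.7 with LIF and 12.9 and 13.0 with OSM. Its OSM libraries lay below all others, with a change of -0.59 (SE 0.13, adjusted p = 0.00549), and this call was lost without control replicate 2 or either OSM library. Gmnn encodes geminin, which binds Cdt1 and blocks licensing after S phase begins. Its levels were 14.4 and 18.3 CPM in control, 15.9 and 15.9 with IL6, 14.8 and 16.2 with LIF and 14.5 and 14.3 with OSM. The OSM libraries overlapped control and lay below IL6 and LIF, and the change from control was -0.19 with a 95% interval of -0.44 to 0.06. Per length, the ratio of Cdt1 to Gmnn was 0.613 ± 0.0180 in control (SD, n = 2), 0.567 ± 0.0948 with IL6, 0.502 ± 0.00154 with LIF and 0.463 ± 0.00539 with OSM. With 2 libraries against 2, an exact two-sided permutation test cannot go below 0.333, so ratios between genes are given without a test.

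All 6 MCM2-7 genes fell with OSM and with LIF. With LIF, Mcm3 and Mcm5 were the 2 of the 6 still called without LIF replicate 2, and those with Mcm7 were the 3 still called without LIF replicate 1. With OSM, the 95% interval of Mcm5 (-2.10 to -1.66) did not overlap that of Mcm2 (-1.04 to -0.68), though the difference itself was not tested. Mcm5 had 23.2 and 22.7 CPM in control, 20.7 and 21.5 with IL6, 15.4 and 14.0 with LIF and 6.23 and 6.24 with OSM. The groups were in the order control, IL6, LIF, OSM without overlap. OSM changed it by -1.88 (SE 0.10, adjusted p = 5.00e-08). LIF changed it by -0.64 (SE 0.090, adjusted p = 9.32e-04), and OSM minus LIF was -1.24 (SE 0.11, adjusted p = 1.60e-05). Mcm2 changed least in this group with OSM. It had 47.5 and 50.3 CPM in control, 42.9 and 47.3 with IL6, 42.0 and 37.7 with LIF and 27.3 and 26.4 with OSM. Both its OSM libraries were lowest, with a change of -0.86 (SE 0.083, adjusted p = 6.76e-06). The other 4 fell by 0.88 (Mcm6), 0.94 (Mcm7), 0.98 (Mcm4) and 1.38 (Mcm3) on the log2 scale with OSM. Mcm7 shares 34.2% of its sequence with Gm5487 and Ap4m1, so its count is uncertain.

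The proteins of the 6 genes sit in equal numbers in the ring, but the RNA levels per length were unequal. In control, Mcm6 was highest at 19.4 CPM per kb and Mcm5 lowest at 6.80, a ratio of 2.85. The ratio of the same pair was 2.85 with IL6, 3.58 with LIF and 5.71 with OSM. Per library, Mcm5 relative to Mcm2 was 0.487 and 0.451 in control, 0.482 and 0.453 with IL6, 0.365 and 0.371 with LIF and 0.227 and 0.235 with OSM. The OSM values lay below all others.

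**Figure D4:**
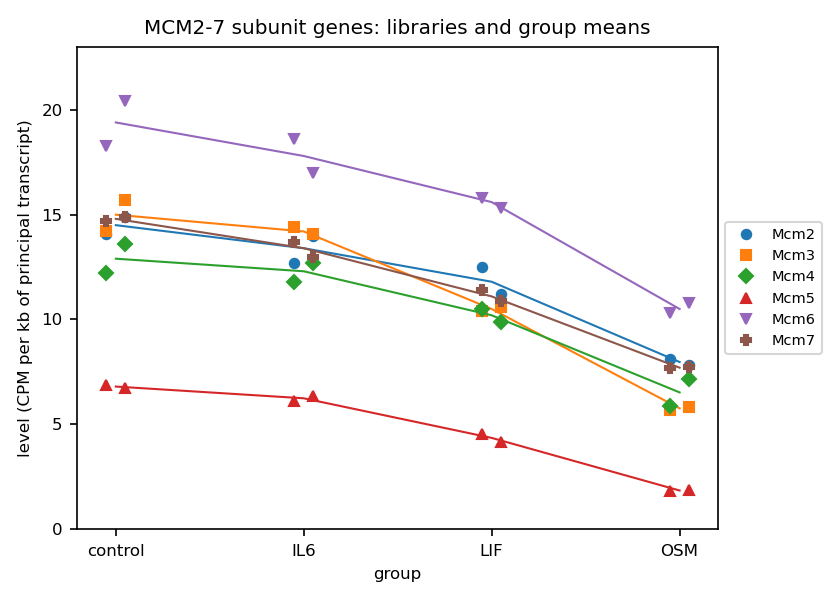
Symbols are libraries and lines join group means for the 6 MCM2-7 genes, in CPM per kb of the principal transcript. Every gene is lowest with OSM, and Mcm5 lies below the other 5 in every library.

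Of the 6 helicase activation genes, 5 fell with OSM and 0 were called with LIF. Mcm10, which binds the assembled helicase and is needed for origin firing, had 8.65 and 11.9 CPM in control, 10.7 and 9.65 with IL6, 7.84 and 7.13 with LIF and 2.84 and 3.39 with OSM. Its LIF libraries lay below control and IL6 and its OSM libraries far below those. OSM changed it by -1.72 (SE 0.18, adjusted p = 1.82e-05), and the LIF value of -0.45 (SE 0.16, adjusted p = 0.105) did not pass. Its control libraries differed by a ratio of 1.37, the largest among the 47 in that group, and without control replicate 1 the LIF change passed the test at -0.663. Cdc45 fell by 0.80 on the log2 scale with OSM.

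The GINS complex has 4 subunits, of which 3 were called. With OSM, Gins1 fell by 1.23 on the log2 scale, Gins2 by 0.94 and Gins3 by 0.72, the last a call lost without OSM replicate 1. Gins4 had 19.9 and 18.0 CPM in control, 20.0 and 18.2 with IL6, 16.0 and 16.4 with LIF and 16.7 and 15.7 with OSM. Its LIF and OSM libraries lay below control, and the OSM change of -0.23 (SE 0.097, adjusted p = 0.118) did not pass. Gins4 minus the other subunits was not tested as a difference. Gins1, Gins2 and Gins3 had at most 292 counts in any library, and 67.3% of the exon bases of Gins2 overlap Gse1 on the opposite strand, so its count is uncertain.

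All 5 clamp and clamp loader genes fell with OSM, and 0 were called with LIF. Pcna, the clamp that tethers polymerases to DNA, was the highest of the 47 per length, at 58.3 CPM per kb in control. It had 87.3 and 89.9 CPM in control, 94.4 and 92.1 with IL6, 78.9 and 79.6 with LIF and 58.7 and 59.5 with OSM. The LIF and OSM libraries lay below control and IL6, with a change of -0.58 for OSM (SE 0.060, adjusted p = 1.31e-05) and -0.16 for LIF (SE 0.059, adjusted p = 0.136). Pcna shares 31.8% of its sequence with Pcna-ps2, so reads may be split between them.

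Among the subunits of replication factor C, which opens and loads the clamp, Rfc5 moved most with OSM and Rfc3 least. Rfc5 had 13.1 and 13.9 CPM in control, 14.8 and 11.8 with IL6, 10.2 and 10.1 with LIF and 7.70 and 7.11 with OSM. OSM was lowest in both libraries, with a change of -0.86 (SE 0.13, adjusted p = 3.64e-04). Rfc3 had 14.2 and 18.4 CPM in control, 16.6 and 15.6 with IL6, 13.0 and 13.9 with LIF and 12.1 and 10.3 with OSM. Its change of -0.54 (SE 0.13, adjusted p = 0.0110) was lost without control replicate 2 or OSM replicate 2. Rfc2 and Rfc4 fell by 0.61 and 0.78 on the log2 scale. Overlap with a gene on the opposite strand covers 10.7% to 15.1% of the exon bases of Rfc2, Rfc4 and Rfc5, so their counts are uncertain to that extent.

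The polymerase genes held both ends of the range. Of 8 genes, 6 fell with OSM and 3 with LIF. Pole, the catalytic subunit of polymerase epsilon, which copies the leading strand, had 22.4 and 23.7 CPM in control, 21.8 and 21.9 with IL6, 15.7 and 15.6 with LIF and 5.61 and 5.94 with OSM. The groups did not overlap and OSM stood at 25% of control. This was the largest fall of the 47 with OSM, -2.0 (SE 0.10, adjusted p = 2.93e-08), with -0.56 for LIF (SE 0.088, adjusted p = 0.00175) and -1.44 for OSM minus LIF (SE 0.11, adjusted p = 5.93e-06).

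Pole2, a noncatalytic subunit of the same polymerase, had 9.47 and 9.13 CPM in control, 12.8 and 9.24 with IL6, 9.42 and 9.18 with LIF and 11.3 and 11.1 with OSM. Its OSM libraries lay above control, and the change of 0.27 (95% interval -0.04 to 0.57, adjusted p = 0.212) did not pass. Per length, the ratio of Pole to Pole2 was 0.564 and 0.619 in control, 0.407 and 0.563 with IL6, 0.396 and 0.404 with LIF and 0.119 and 0.127 with OSM. The OSM ratios lay below all others. Pole2 overlaps Gm49384 on the same strand over 8.5% of its exon bases and shares 11.8% of its sequence with it, so its count is uncertain.

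Polymerase delta copies the lagging strand. Pold1, its catalytic subunit, fell by 0.48 on the log2 scale with OSM. Pold2, an accessory subunit, had 31.8 and 33.7 CPM in control, 23.9 and 32.8 with IL6, 26.7 and 27.2 with LIF and 27.2 and 28.3 with OSM. The LIF and OSM libraries lay below control, IL6 replicate 1 was lowest of all, and the OSM change of -0.24 (SE 0.12, adjusted p = 0.180) did not pass. Per length, Pole relative to Pold1 was 0.372 ± 0.0121 in control (SD, n = 2), 0.377 ± 0.0118 with IL6, 0.277 ± 0.0148 with LIF and 0.130 ± 9.86e-04 with OSM.

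In the polymerase alpha and primase complex, which makes the primers, the catalytic subunits fell further in value than their partners. With OSM, Pola1 fell by 1.25 on the log2 scale and its partner Pola2 by 0.46. Prim1, the primase subunit, fell by 1.26 and its partner Prim2 by 0.79. The OSM call of Pola2 was lost without either OSM library, and that of Prim2 without OSM replicate 2. With LIF, Pola1 (-0.41, adjusted p = 0.0174) and Prim1 (-0.54, adjusted p = 0.00551) passed, while Pola2 was at -0.13 and Prim2 at -0.19. Both LIF calls were lost when either LIF library was left out, and that of Pola1 also without control replicate 2. The differences between partners were not tested.

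All 4 lagging-strand and single-strand binding genes fell with OSM, and 3 with LIF. Lig1, the ligase that joins Okazaki fragments, had 26.9 and 29.3 CPM in control, 26.7 and 24.6 with IL6, 19.6 and 19.7 with LIF and 10.7 and 11.2 with OSM. OSM was lowest and LIF next, with changes of -1.36 (SE 0.094, adjusted p = 3.71e-07) and -0.52 (SE 0.087, adjusted p = 0.00285). Without LIF replicate 2, none of the LIF calls of Lig1, Rpa1 and Rpa2 held. The calls of Rpa1 and Rpa2 were also lost without LIF replicate 1 or control replicate 2, and that of Rpa2 with DESeq2 and without control replicate 1 or either OSM library. Rpa2, a subunit of the complex that coats single-stranded DNA, had 22.3 and 22.7 CPM in control, 19.3 and 19.5 with IL6, 18.3 and 17.7 with LIF and 14.7 and 14.5 with OSM. All treated libraries lay below control, with a change of -0.62 for OSM (SE 0.086, adjusted p = 1.78e-04). Rpa1, the large subunit, fell by 0.72 on the log2 scale with OSM and by 0.32 with LIF. Fen1, which trims flaps between fragments, fell by 0.98 with OSM, and 84.2% of its exon bases overlap Gm10143 and Tmem258 on the opposite strand, so its count is uncertain.

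Genes of nucleotide supply all fell with OSM, with changes from -1.84 to -0.38 on the log2 scale. Tk1, the thymidine kinase of the salvage route, had 22.9 and 26.8 CPM in control, 23.6 and 22.0 with IL6, 19.5 and 18.8 with LIF and 6.94 and 6.88 with OSM. OSM stood at 27.8% of control, with changes of -1.84 for OSM (SE 0.11, adjusted p = 1.20e-07), -0.37 for LIF (SE 0.096, adjusted p = 0.0317) and -1.47 for OSM minus LIF (SE 0.12, adjusted p = 7.58e-06). The last was the largest fall of the 47 in that comparison. The LIF call of Tk1 was lost without control replicate 2 or any LIF or OSM library and in the fit of those groups alone. Tyms, thymidylate synthase, fell by 1.51 on the log2 scale with OSM and by 0.52 with LIF. Dut, which removes dUTP, fell by 0.96 with OSM.

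Ribonucleotide reductase, which makes deoxyribonucleotides, changed least of this group. Rrm2, its small subunit, had 53.5 and 64.3 CPM in control, 61.4 and 58.2 with IL6, 57.5 and 61.8 with LIF and 43.2 and 47 with OSM. OSM lay below all other libraries, with a change of -0.38 (SE 0.089, adjusted p = 0.00795), and the call was lost without control replicate 2 or OSM replicate 1. Rrm1, the large subunit, fell by 0.39. Per length, the ratio of Rrm1 to Rrm2 was 1.51 ± 0.103 in control (SD, n = 2), 1.46 ± 0.0204 with IL6, 1.38 ± 0.0896 with LIF and 1.5 ± 0.121 with OSM, ranges that overlap between control and OSM.

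The 4 genes for copying chromatin all fell with OSM, with a median of -1.23 on the log2 scale. Uhrf1, which reads hemimethylated DNA behind the fork and recruits Dnmt1, had 51.6 and 50.4 CPM in control, 46.9 and 43.8 with IL6, 35.2 and 35.1 with LIF and 16.1 and 18.6 with OSM. The groups did not overlap, and the changes were -1.56 for OSM (SE 0.084, adjusted p = 4.66e-08) and -0.54 for LIF (SE 0.078, adjusted p = 0.00116). Uhrf1 shares 18.9% of its sequence with Gm5648 and Gm15953. Dnmt1, the maintenance DNA methyltransferase, had 93.5 and 108 CPM in control, 93.0 and 95.5 with IL6, 86.7 and 86.6 with LIF and 66.7 and 72.7 with OSM. It was lowest with OSM at 69.3% of control, a change of -0.53 (SE 0.075, adjusted p = 2.21e-04). Chaf1a and Chaf1b, subunits of the histone chaperone CAF-1, fell by 1.15 and 1.31 with OSM, and the OSM libraries of Chaf1b differed by a ratio of 1.48. Of the exon bases of Chaf1a, 52.5% overlap Ubxn6 on the opposite strand, so its count is uncertain.

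Among the 4 regulators of S-phase entry, E2f2 was called with OSM and 0 were called with LIF. E2f2, an activating E2F factor, had 17.1 and 17.2 CPM in control, 18.6 and 17.2 with IL6, 21.2 and 17.2 with LIF and 12.7 and 11.6 with OSM. OSM lay below all other libraries, with a change of -0.50 (SE 0.12, adjusted p = 0.00813), and the call was lost without OSM replicate 2. E2f1, another activating factor, had 37.9 and 43.1 CPM in control, 41.5 and 43.4 with IL6, 40.0 and 42.5 with LIF and 39.1 and 38.5 with OSM. The OSM libraries overlapped control and lay below IL6 and LIF, and the change from control of -0.06 had a 95% interval of -0.23 to 0.11, which leaves out a fall of 1.5-fold.

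Ccne1 encodes cyclin E1, the partner of Cdk2 at the start of S phase. It had 11.9 and 14.1 CPM in control, 12.3 and 12.8 with IL6, 13.1 and 13.9 with LIF and 10.5 and 13.0 with OSM. Control and OSM overlapped, with a change of -0.15 (95% interval -0.42 to 0.13, adjusted p = 0.464). Ccne2, cyclin E2, was at -0.27 against control (adjusted p = 0.188) and was called against IL6 (-0.47, adjusted p = 0.0274), a call lost without IL6 replicate 1 or either OSM library and in the fit of those 2 groups alone. It overlaps Ints8 on the opposite strand over 17.4% of its exon bases, so its count is uncertain.

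**Figure D5:**
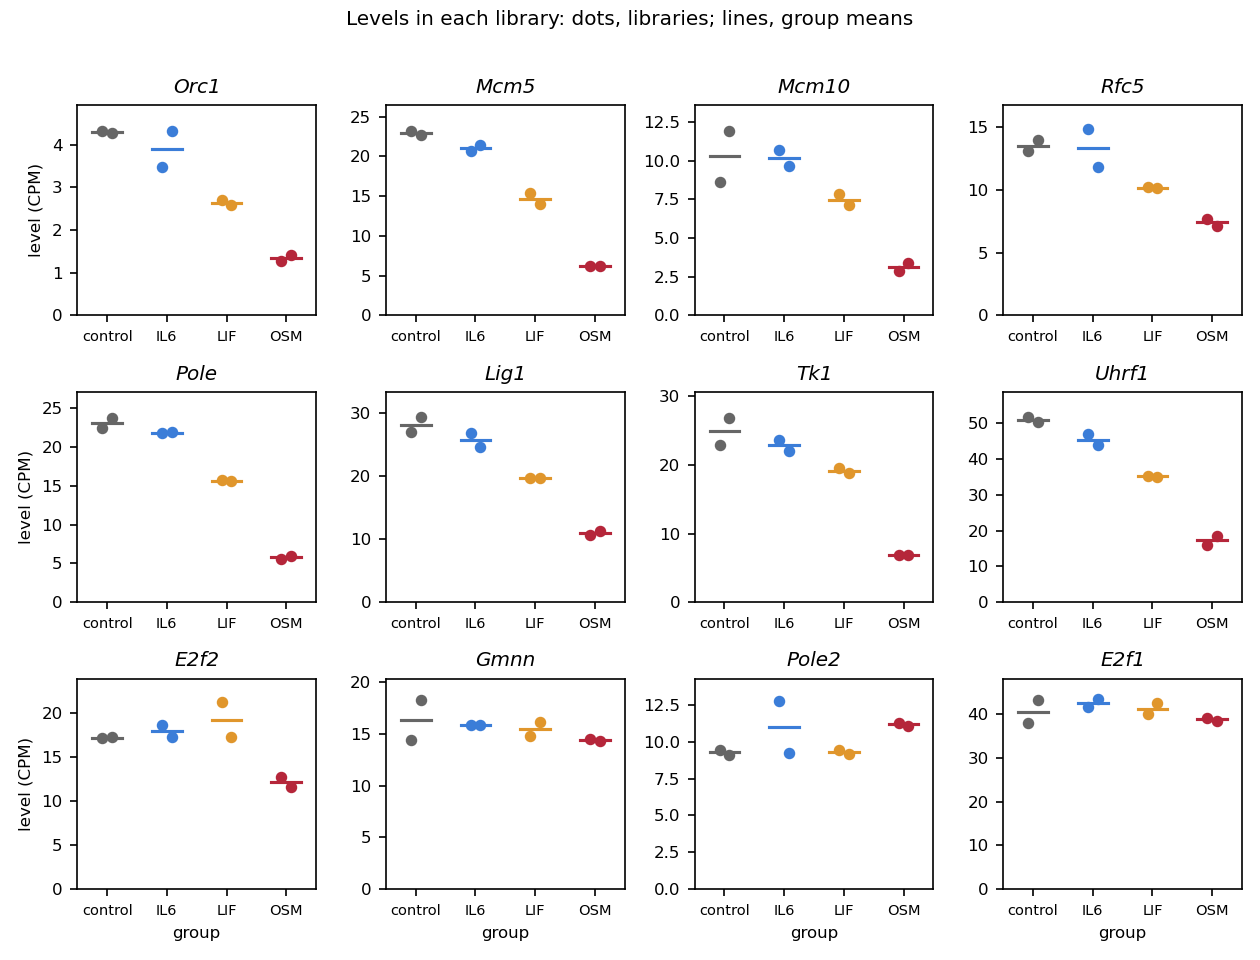
Dots are libraries and lines are group means in CPM, on axes that start at 0, for 12 of the replication genes. Orc1, Mcm5, Mcm10, Rfc5, Pole, Lig1, Tk1 and Uhrf1 are lowest with OSM and next lowest with LIF, E2f2 is lowest with OSM, Gmnn and E2f1 overlap between control and OSM, and Pole2 is slightly higher with OSM than in control.

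A further 60 genes of DNA replication and its control, listed for what they do with earlier results of these data known, were all tested. With OSM 36 were called lower and 2 higher, where 10.5% of all genes tested were called lower and 10.7% higher. The median of the 60 was -0.49 on the log2 scale. With LIF 12 were lower and 1 higher, where 3.52% of all genes were lower and 4.18% higher, with a median of -0.17. With IL6 0 were called by edgeR, and 3 had an unadjusted p under 0.05. The largest falls with OSM were in Esco2, which acetylates cohesin during S phase (-2.15, SE 0.13, adjusted p = 1.03e-07), and Ccna2, cyclin A2 (-2.01, SE 0.10, adjusted p = 2.87e-08). The rises were in Samhd1 and Pold4. Samhd1, which breaks down deoxyribonucleotides, had 46.4 and 53.2 CPM in control, 53.7 and 52.3 with IL6, 66.6 and 74.9 with LIF and 113 and 114 with OSM. Its OSM libraries were highest and its LIF libraries next, with changes of 1.19 (SE 0.079, adjusted p = 2.67e-07) and 0.51 (adjusted p = 0.00189). Pold4, a small subunit of polymerase delta, rose by 0.20 (SE 0.065, adjusted p = 0.0429).

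Other genes followed the same pattern over the 8 libraries. Among 10700 other genes, the 5 whose log2 CPM followed the mean of the 47 most closely were Ndc80 (Pearson r 0.9986 over 8 libraries), Kif20a (0.9985), Pclaf (0.9985), Kif2c (0.9982) and Brip1 (0.9982). Ndc80, Kif20a and Kif2c encode proteins of the kinetochore and the spindle, Pclaf a protein that binds PCNA, and Brip1 a helicase of DNA repair. Ndc80 had 21 and 24.1 CPM in control, 22.0 and 19.8 with IL6, 15.2 and 14.3 with LIF and 5.61 and 5.81 with OSM, and the LIF and OSM libraries lay in that order below the rest. Each of the 47 is itself part of their mean, so values within the 47 are not comparable with those of outside genes. Within the 47, Lig1 and Mcm3 followed the mean at 0.998, and at the other end Ccne1 stood at 0.478, Pold2 at 0.336 and Pole2 at -0.390.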

How the data were processed

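The authors deposited a table of raw read counts per gene for each of 8 libraries. Per the labels' protocols, total RNA was made into libraries with a stranded mRNA kit. The submitters' processing notes name FastQC 0.11.9, MultiQC 1.12, Trim Galore 0.6.5, STAR 2.7.3a, HTSeq 0.11.1, DESeq2 1.34.0 and the genome build GRCm39 (mm39). The strand setting of the counting and the annotation release are not given in the sources used here. Groups come from the sample titles. The summary lines of each file, 11.7% to 12.7% of its total, were left out. Symbols were matched through GENCODE M21 (52093 of 53647 identifiers), which also gave transcript lengths, gene overlaps and sequence shared over stretches of 50 bases, so these describe another build than the one counted on.

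Genes were filtered with filterByExpr (minimum count 10), scaled by TMM and tested with edgeR 4.0.16 in R 4.3.3 by the quasi-likelihood F test, in a single fit of the 4 groups without a replicate block (15603 genes, 4 residual degrees of freedom, robust). P-values were adjusted over all genes within each of 6 comparisons, and calls required an adjusted p under 0.05. Each log2 change has the standard error of the fit, and 95% intervals are not adjusted. Differences between libraries of a group exceeded counting error (chi-square per gene 3.04 to 12.3), so none was counted as a duplicate. Alternatives were median-ratio scaling, DESeq2 1.42.0, no count filter, 2 groups only, a replicate block, a 1.5-fold minimum, each library left out, and, chosen after seeing the data, leaving out 12 genes that overlap or share sequence with another over more than 10%.

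In each role group, the genes given with every library's value are those with the largest and smallest change with OSM, together with Pcna, Cdt1 and Ccne1. Pole2 was added after its values were seen. Lists of 60 further replication genes and of cell type markers were written from general knowledge. Members and lists were chosen with earlier results of these data known. Promoters are from RefSeq (GRCm38.p6).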

Additional observations from a re-analysis of the deposited data

How the results depend on the processing

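Over the 13 alternatives that refit the model without a fold minimum, the 40 calls with OSM against control all kept their sign, and 33 of them stayed called in every one. Of 18 calls with LIF, all kept their sign and 4 stayed called. For OSM against LIF 20 of 33 stayed called, for OSM against IL6 31 of 41, and for LIF against IL6 0 of 8. With a minimum fall of 1.5-fold OSM gave 32 calls and LIF 2 against control, with 20 for OSM against LIF, 30 for OSM against IL6 and 0 for LIF against IL6. With each library left out in turn, the counts against control ran from 35 to 41 (OSM), 4 to 22 (LIF) and 0 to 1 (IL6). They ran from 21 to 37 for OSM against LIF, 33 to 41 for OSM against IL6 and 0 to 10 for LIF against IL6. Where this left a group with 1 library, it was assumed to vary like the other groups. The median log2 change of the 47 genes then ran from -0.904 to -0.793 with OSM, from -0.335 to -0.232 with LIF and from -0.127 to 0.00906 with IL6, with both ends of each range set by leaving out a control library.

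Among the genes named by the rule, those that changed sign against control with OSM or LIF had not passed the test there, and did so when a library was left out. With OSM, Gmnn ran from -0.347 to 0.00559 and E2f1 from -0.151 to 0.0403, with the positive ends without control replicate 2, and Ccne1 ran from -0.300 to 0.00502, the latter without OSM replicate 1. With LIF, Gmnn ran from -0.242 to 0.107, Rrm2 from -0.107 to 0.163, E2f1 from -0.0632 to 0.124 and Ccne1 from -0.0602 to 0.193, with the low ends without control replicate 1 and the high ends without control replicate 2. Without LIF replicate 2, Rrm2 was at -0.0335 and E2f1 at -0.0183. Outside the rule, Pole2, near 0 with LIF, changed sign there in 9 of the 13 alternatives and Ccne2 in 2. The cause was not tested.

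With a replicate block OSM gave 40 calls, LIF 22 and IL6 0 against control, and OSM gave 37 against LIF and 41 against IL6, with 12 for LIF against IL6. The numbers were not taken to pair libraries, because the labels do not say that a number marks a shared animal, litter or day. Over all genes tested, same-numbered libraries of different groups deviated together with correlations of 0.00708 to 0.181. Low correlations over all genes cannot exclude pairing, since counting noise also lowers them. Without the 12 genes that overlap or share sequence with another, 30 of 35 were called lower with OSM and 14 with LIF. Depth limits Orc1 and Gins1 most, with 37 counts in their lowest library.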
